A study of Homo sapiens with 5 samples.

Results

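The interferon-stimulated genes considered here are 38 genes taken by symbol from a fixed list, out of 58812 Ensembl gene IDs counted in RNA from the prostate cancer line C4-2B. Each of the 38 symbols matched 1 ID, with DDX58 standing for the gene now also named RIGI. The rule that lists them uses no measured value, but they were chosen with earlier results of these data known. C4-2B is a castration-resistant line of the LNCaP lineage, and HOXB13 encodes a homeodomain protein that binds DNA in prostate cells. The libraries were 2 of the HOXB13 K13A mutant clone C4K13A, 1 of the mutant clone C5K13A and 2 of the parental line. In K13A, lysine 13 of HOXB13, an acetylation site, is replaced by alanine. All groups were grown in C4-2B medium with no interferon or other agent named in the labels. Each mutant group is a single clone, so a difference of 1 clone from parental cannot be told apart from the history of that clone.

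Interferons are secreted when a cell detects foreign or misplaced nucleic acid. Type I interferons bind IFNAR1 and IFNAR2, the kinases JAK1 and TYK2 are activated, and STAT2 acts with IRF9 in a complex that binds the interferon-stimulated response element (ISRE) in promoters. The induced genes block viral entry, translation, replication and release, and some of them feed back on the pathway. LNCaP, from which C4-2B was derived, is known for a lack of functional JAK1, so the levels below are those of unstimulated cells in a lineage with a defect in this pathway.

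Total counts were 48442286 and 44229589 in C4K13A, 43190276 in C5K13A, and 57282373 and 51978974 in parental. The libraries differed in residual mitochondrial ribosomal RNA, which was 63.1 and 360.0 CPM (a gene's count scaled to a common library total with TMM factors) in C4K13A, 674 CPM in C5K13A and 28.1 and 1765 CPM in parental. Markers of the prostate luminal line were present throughout, with a summed level of 5950 to 6190 CPM in C4K13A, 5260 CPM in C5K13A and 5120 to 6950 CPM in parental over 10 genes. HOXB13 had 344 and 343 CPM in C4K13A, 354 CPM in C5K13A and 338 and 449 CPM in parental; gene counts cannot show a point substitution. Of 13 leukocyte markers, 12 averaged under 1 CPM, CD3E and MS4A1 had 0 counts and PTPRC had 3 counts in all. CD4, CD8A and IL3RA had 273, 244 and 193 counts in all, with up to 2.67 CPM for CD4 in parental library 1. The leukocyte list summed to between 0.969 and 3.47 CPM in C4K13A, 1.92 CPM in C5K13A and between 3.75 and 5.77 CPM in parental. Fibroblast markers summed to between 5.08 and 7 CPM and endothelial markers to between 2.63 and 5.71 CPM per library, mostly from COL1A1 and VWF. PTPRC, CD3E and MS4A1 were thus at or near 0, while CD4, CD8A and IL3RA were detected. The part of these lists in the results was not tested. In RNA of whole cultures, fewer cells expressing a gene and less of its RNA per cell cannot be told apart. Whether libraries of 1 group were made from separate cultures is not stated; p-values here therefore reflect library-to-library spread that could be technical.

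Promoter sequences were available for 30 of the 38 genes in the RefSeq table (GRCh38.p14), as windows of 300 bases that run from 250 bases before to 50 after an annotated start. IFIT2, IFITM2, IRF7, MX2, OAS2, OASL, TRIM22 and USP18 had no entry. The core of the ISRE was searched for as GAAANNGAAA, which reads TTTCNNTTTC on the other strand, and overlapping matches were counted. It occurred in 22 of the 30 genes (73.3%), against 4.38% of 27305 genes in the same table, of which the 30 are part. The 8 without it in this window were CMPK2, DDX58, HERC6, IRF9, OAS1, SAMD9L, STAT2 and XAF1.

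Matches to the ISRE core were found at similar rates in genes above and below a mean of 1 CPM. That cut takes no account of gene length: BST2, below it, had 0.722 CPM per kilobase, and DDX60, above it, had 0.163. The core was present in 12 of 17 matched genes with a mean of at least 1 CPM over the 5 libraries and in 10 of 13 below it. The bases before the start are printed for 6 genes in capitals where they match the core: ISG15 and OAS3 because they were among the highest of the 38, IFIT1 because it stayed near 1 CPM with the same element, and LGALS3BP, HERC5 and PARP14 because their C4K13A libraries lay below both parental ones. In ISG15 and HERC5, 2 of the matches overlap and form 1 longer run of capitals. The windows lie at chr1:1013247-1013496, plus strand for ISG15, chr12:112938224-112938473, plus strand for OAS3 and chr10:89392373-89392622, plus strand for IFIT1. Those of the other three lie at chr17:78979924-78980173, minus strand for LGALS3BP, chr4:88456869-88457118, plus strand for HERC5 and chr3:122680589-122680838, plus strand for PARP14.
ISG15: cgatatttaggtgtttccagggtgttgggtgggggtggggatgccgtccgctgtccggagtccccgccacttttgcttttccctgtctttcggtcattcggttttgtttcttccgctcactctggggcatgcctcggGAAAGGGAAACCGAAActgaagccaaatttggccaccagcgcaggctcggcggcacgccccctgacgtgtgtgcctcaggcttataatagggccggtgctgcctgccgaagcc
OAS3: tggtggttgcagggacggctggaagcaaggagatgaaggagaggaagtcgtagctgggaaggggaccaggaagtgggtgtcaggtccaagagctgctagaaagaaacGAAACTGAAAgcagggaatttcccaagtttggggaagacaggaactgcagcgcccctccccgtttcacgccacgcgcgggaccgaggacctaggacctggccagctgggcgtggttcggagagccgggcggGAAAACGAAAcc
IFIT1: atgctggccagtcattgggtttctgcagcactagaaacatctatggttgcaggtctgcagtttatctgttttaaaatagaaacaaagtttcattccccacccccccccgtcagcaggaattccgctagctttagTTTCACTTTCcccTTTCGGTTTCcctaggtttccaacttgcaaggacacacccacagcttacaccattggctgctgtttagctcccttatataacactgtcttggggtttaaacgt
LGALS3BP: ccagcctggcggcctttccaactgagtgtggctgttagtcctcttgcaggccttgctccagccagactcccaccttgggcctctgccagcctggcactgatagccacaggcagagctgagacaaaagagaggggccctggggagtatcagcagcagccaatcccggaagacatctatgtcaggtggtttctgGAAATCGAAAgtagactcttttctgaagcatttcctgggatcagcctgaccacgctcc
HERC5: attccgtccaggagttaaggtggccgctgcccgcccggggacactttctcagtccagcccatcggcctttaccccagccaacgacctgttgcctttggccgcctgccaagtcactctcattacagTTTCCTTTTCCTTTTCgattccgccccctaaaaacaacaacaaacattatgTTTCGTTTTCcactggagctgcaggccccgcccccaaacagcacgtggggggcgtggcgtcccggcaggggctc
PARP14: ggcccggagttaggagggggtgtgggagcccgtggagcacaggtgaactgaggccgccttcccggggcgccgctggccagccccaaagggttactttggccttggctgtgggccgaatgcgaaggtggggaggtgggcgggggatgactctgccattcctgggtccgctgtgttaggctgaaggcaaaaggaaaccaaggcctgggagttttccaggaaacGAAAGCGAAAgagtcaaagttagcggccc

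**Figure D1:**
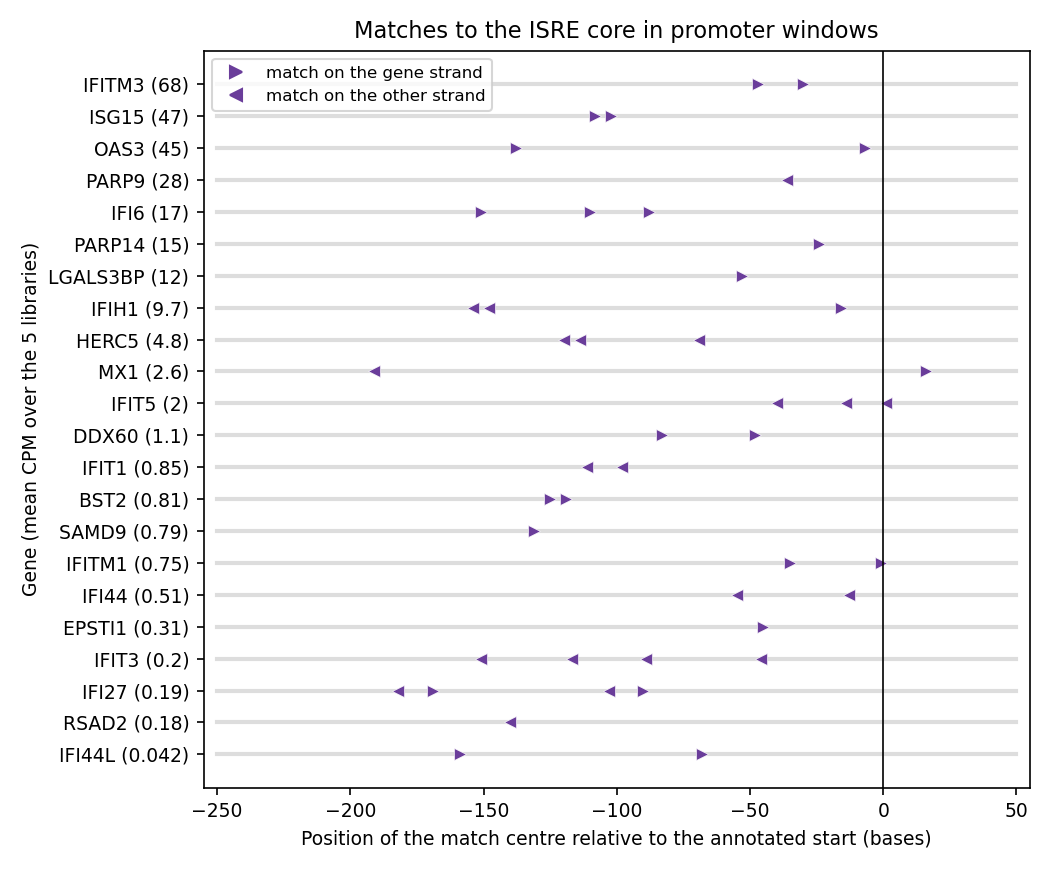
Position of each match to the ISRE core (horizontal axis, bases from the annotated start, which is 0) in the promoter windows of the 22 genes that hold one, ordered by mean level (CPM, in parentheses); arrowheads give the strand. Genes with several annotated starts show the same element more than once. IFITM3 at the top and IFI44L at the bottom both hold 2 matches.

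Of the 38 genes, 20 averaged at least 1 CPM and 11 at least 10 CPM, and 18 averaged under 1 CPM. Per kilobase of exon, 13 of the 38 lay above the median of 19619 protein-coding genes, which was 1.34 CPM per kilobase. IFITM3 and ISG15 led with 50.6 and 49.5 CPM per kilobase, followed by IFITM2 with 23.0 and IFI6 with 20.0. The 38 together summed to 328 and 353 CPM in C4K13A, 424 CPM in C5K13A and 347 and 426 CPM in parental, so the groups overlapped. IFITM3, ISG15, OAS3, IFITM2 and PARP9, the 5 highest by CPM, held between 50.3% and 66.0% of that sum.

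**Figure D2:**
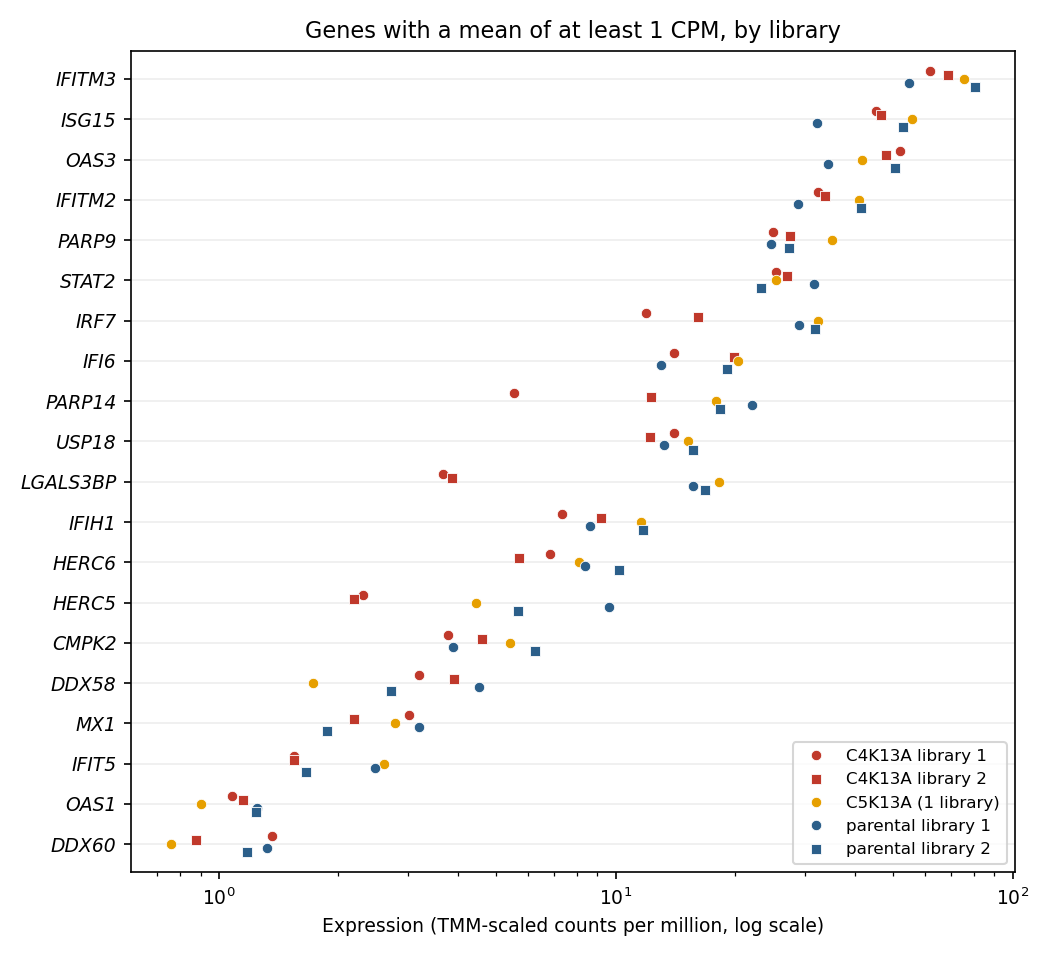
Level of the 20 genes with a mean of at least 1 CPM (horizontal axis, CPM on a log scale) in each library, with C4K13A in red, C5K13A in orange and parental in blue; circles are library 1 and squares library 2. The red points of LGALS3BP, near 3.7 to 3.9 CPM, stand apart from the other 3 libraries, while for IFITM3, ISG15 and OAS3 the 5 libraries interleave.

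The 4 factors of membranes differed widely in level. IFITM2 and IFITM3, which hold back viral fusion in endosomes, were among the highest genes: IFITM3 had 61.8 and 68.7 CPM in C4K13A, 75.4 CPM in C5K13A and 54.7 and 80.3 CPM in parental. IFITM2 had 32.4 and 33.7 CPM in C4K13A, 41.1 CPM in C5K13A and 28.8 and 41.4 CPM in parental. For both, every clone library lay between the 2 parental ones. IFITM1, which acts at the cell surface, and BST2, which tethers budding virions, averaged 0.751 and 0.807 CPM over the 5 libraries. The IFITM genes are near-identical neighbours on chromosome 11 and IFITM1 overlaps IFITM2 in the annotation, so the split of reads among them is uncertain.

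The ubiquitin-like modifier ISG15 and its enzymes were all transcribed. ISG15 had 45.3 and 46.6 CPM in C4K13A, 55.7 CPM in C5K13A and 32.2 and 52.9 CPM in parental, with the highest value in C5K13A and the lowest in parental library 1. USP18, the protease that removes ISG15 and also blocks IFNAR2 signalling, had 14 and 12.2 CPM in C4K13A, 15.2 CPM in C5K13A and 13.2 and 15.7 CPM in parental. The groups of both genes overlapped. HERC5, the main ISG15 ligase, had 2.31 and 2.19 CPM in C4K13A, 4.44 CPM in C5K13A and 9.64 and 5.66 CPM in parental. Its neighbour on chromosome 4, HERC6, had 6.84 and 5.70 CPM in C4K13A, 8.07 CPM in C5K13A and 8.39 and 10.2 CPM in parental. For both HERC genes the 3 clone libraries lay below both parental ones, as they did for 15% of all genes tested.

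Among the transcription factors, STAT2 and IRF7 were well above IRF9. STAT2 had 25.3 and 27.0 CPM in C4K13A, 25.3 CPM in C5K13A and 31.6 and 23.2 CPM in parental. IRF7, the factor that amplifies interferon alpha production, had 11.9 and 16.1 CPM in C4K13A, 32.4 CPM in C5K13A and 29 and 31.7 CPM in parental. IRF7 was thus low in both C4K13A libraries and highest in C5K13A. IRF9, the DNA-binding subunit of the complex with STAT2, had only 8 to 17 counts per library. That is 0.0625 CPM per kilobase, against 4.33 for STAT2 and 9.22 for IRF7. The protein-coding gene AL136295.5 overlaps IRF9 on the same strand. How reads shared by overlapping genes were counted is not known here, so the low level of IRF9 is uncertain.

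The RNA sensors differed in level, with 1.90 CPM per kilobase for IFIH1, 0.739 for DDX58 and 0.163 for DDX60. IFIH1, or MDA5, which senses long double-stranded RNA, had 7.33 and 9.16 CPM in C4K13A, 11.6 CPM in C5K13A and 8.61 and 11.7 CPM in parental. DDX58, or RIG-I, which senses RNA with a 5′ triphosphate, had 3.19 and 3.92 CPM in C4K13A, 1.73 CPM in C5K13A and 4.52 and 2.72 CPM in parental. DDX60, a helicase proposed to assist RIG-I, had 1.36 and 0.877 CPM in C4K13A, 0.759 CPM in C5K13A and 1.32 and 1.18 CPM in parental. C5K13A had the lowest value of DDX58 and DDX60 among the 5 libraries, and C4K13A overlapped parental for all 3 genes.

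Within families encoded side by side, 1 gene carried most of the reads. Of the OAS enzymes, which make the 2′-5′ oligoadenylates that activate RNase L, OAS3 had 52.1 and 48.1 CPM in C4K13A, 41.8 CPM in C5K13A and 34.3 and 50.5 CPM in parental. OAS1, beside it on chromosome 12, had 1.08 and 1.15 CPM in C4K13A, 0.901 CPM in C5K13A and 1.25 and 1.24 CPM in parental. OAS2, on the far side of OAS3, had 4 counts in all 5 libraries together. Per kilobase the levels were 5.50 CPM for OAS3, 0.227 for OAS1 and 0.00265 for OAS2, and OASL had 0.0640. An antisense gene overlaps OAS1, OAS2 and OAS3, and counts do not tell its reads apart from theirs because the strand setting is not known.

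The same held for other pairs. CMPK2, a mitochondrial nucleotide kinase, had 3.79 and 4.61 CPM in C4K13A, 5.41 CPM in C5K13A and 3.90 and 6.25 CPM in parental. RSAD2, or viperin, which turns CTP into a chain terminator and overlaps CMPK2 on chromosome 2, had only 5 to 18 counts per library. MX1, a dynamin-like GTPase that traps viral nucleocapsids, had 3.01 and 2.19 CPM in C4K13A, 2.78 CPM in C5K13A and 3.19 and 1.87 CPM in parental. Its neighbour MX2 had 2 to 14 counts per library. SAMD9 averaged 0.794 CPM, while SAMD9L beside it had 4 counts in all 5 libraries.

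PARP9 and PARP14, ADP-ribosylation genes on chromosome 3, had different patterns across the libraries. PARP9 had 24.9 and 27.5 CPM in C4K13A, 35.1 CPM in C5K13A and 24.6 and 27.4 CPM in parental. PARP14 had 5.54 and 12.3 CPM in C4K13A, 17.9 CPM in C5K13A and 22.0 and 18.3 CPM in parental. Each clone library thus lay below both parental ones, as for 15% of all genes tested. DTX3L, the ubiquitin ligase that pairs with PARP9 and overlaps it on the opposite strand, had 46.9 and 51.3 CPM in C4K13A, 61.1 CPM in C5K13A and 54.4 and 49.3 CPM in parental.

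The IFIT proteins, which bind viral RNA without a host-like cap, were all low. IFIT5 had 1.55 CPM in each C4K13A library, 2.61 CPM in C5K13A and 2.47 and 1.66 CPM in parental. IFIT1 had 0.817 and 0.784 CPM in C4K13A, 1.57 CPM in C5K13A and 0.371 and 0.729 CPM in parental. IFIT2 had 0.159 and 0.138 CPM in C4K13A, 0.735 CPM in C5K13A and 0.338 and 0.532 CPM in parental. IFIT1 and IFIT2 were thus highest in C5K13A, on 66 and 31 counts, and IFIT3 ran from 0 to 24 counts per library. LIPA overlaps IFIT1, IFIT2 and IFIT3 on the opposite strand.

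Of the remaining genes, only IFI6 and LGALS3BP exceeded 1 CPM on average. IFI6, a membrane protein that protects cells from apoptosis and flavivirus replication, had 14 and 19.9 CPM in C4K13A, 20.3 CPM in C5K13A and 13.0 and 19.1 CPM in parental. IFI27, IFI44, EPSTI1 and TRIM22 averaged between 0.189 and 0.505 CPM. IFI44L and XAF1 had 10 and 7 counts in all 5 libraries together.

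**Figure D3:**
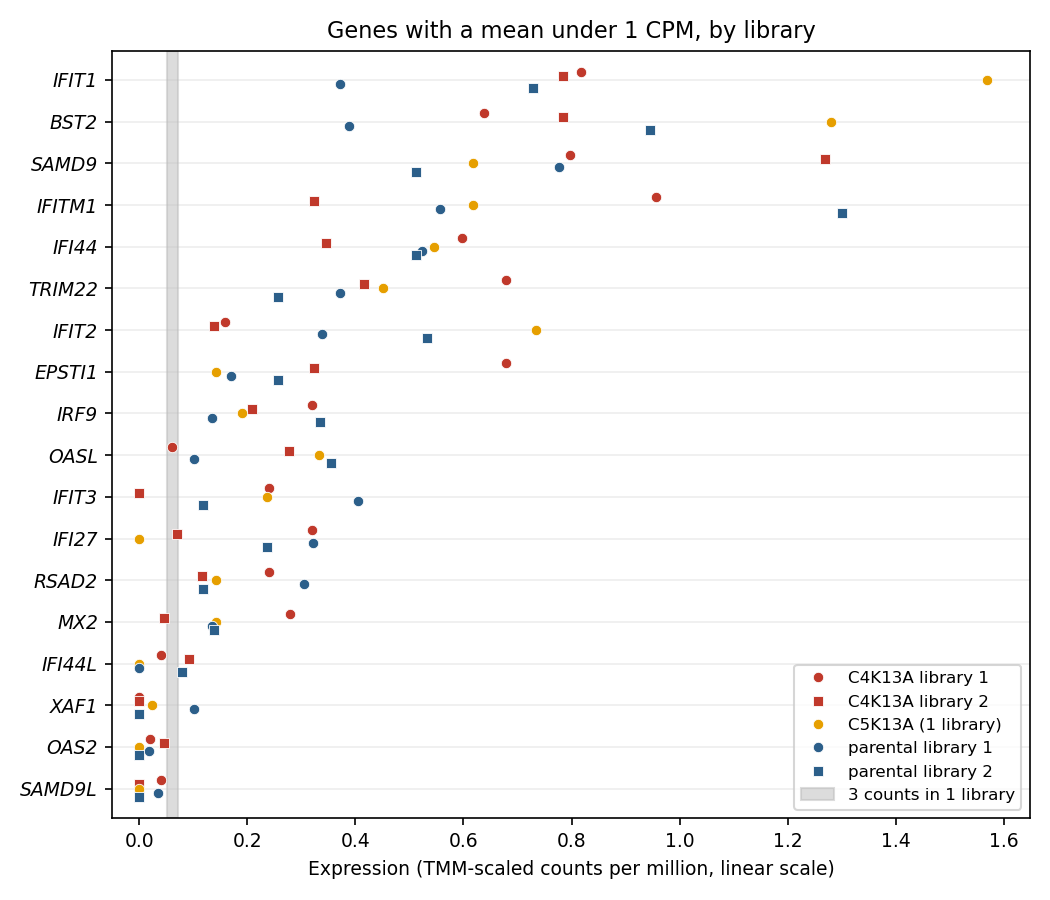
Level of the 18 genes with a mean under 1 CPM (horizontal axis, CPM on a linear scale) in each library, colours and symbols as in the plot of higher genes. The grey band spans 3 counts in 1 library, 0.0507 to 0.0712 CPM; IFI44L, XAF1, OAS2 and SAMD9L lie in or near it, and the orange C5K13A point of IFIT1 is the highest at 1.57 CPM.

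LGALS3BP was the gene of the 38 whose difference passed the test over all genes. It encodes a secreted glycoprotein, the galectin-3 binding protein, and lies at chr17:78971238-78980109 on the minus strand (GRCh38, GENCODE v29). It had 3.67 and 3.88 CPM in C4K13A, 18.2 CPM in C5K13A and 15.7 and 16.8 CPM in parental. Both C4K13A libraries were low, and C5K13A was slightly above both parental libraries. Relative to parental it fell by 2.10 ± 0.22 (SE) on the log2 scale in C4K13A (edgeR's quasi-likelihood test, adjusted p = 0.00862) and was at 0.16 ± 0.25 in C5K13A (adjusted p = 0.921).

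The difference between the clones was tested directly. LGALS3BP had 18.2 CPM in C5K13A against 3.67 and 3.88 CPM in C4K13A, a log2 fold change of 2.26 ± 0.25 (adjusted p = 0.0430). That test takes the spread of the single C5K13A library to equal that of the other groups. The call between the clones ended with a filter of 5 CPM (2.24, adjusted p = 0.177) and with limma-voom (2.26, adjusted p = 0.161). The fall in C4K13A was called in each of 12 alternatives, with fold changes from -2.14 to -2.04.

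**Figure D4:**
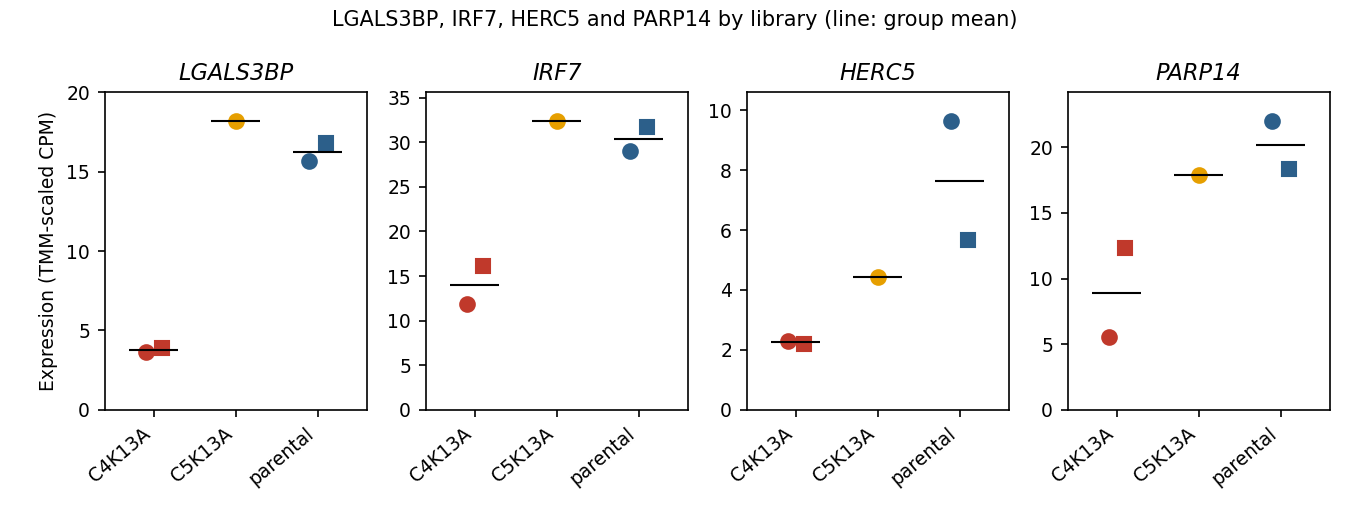
Level of LGALS3BP, IRF7, HERC5 and PARP14 (vertical axis, CPM from 0) in C4K13A, C5K13A and parental libraries, with a line at each group mean. LGALS3BP and IRF7 were low in both C4K13A libraries with C5K13A at or above parental, and for HERC5 and PARP14 C5K13A lay between the C4K13A and parental libraries.

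Against parental, 34 of the 38 genes had enough counts to be tested in C4K13A. At an adjusted p under 0.05, which is what called means here, LGALS3BP was lower and 0 were higher. Over all 22743 genes tested 0.699% were called, 0.0967% higher and 0.602% lower. The median log2 fold change was -0.12 over the 34 and -0.01 over all genes, and 22 of the 34 were negative. IFI44L, OAS2, SAMD9L and XAF1 were not tested, with 4 to 10 counts each in all libraries together. Both C4K13A libraries lay below both parental ones for 8 of the 34 (IRF7, IFIT2, IFIT5, OAS1, HERC5, HERC6, PARP14 and LGALS3BP) and above them for 4 (IFIT1, SAMD9, TRIM22 and EPSTI1); such separation was found for 43.9% of all genes tested, 23.6% below and 20.4% above.

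IRF7 and HERC5 came next to LGALS3BP in C4K13A and missed the threshold. IRF7 had 14 ± 2.96 CPM in C4K13A and 30.4 ± 1.90 CPM in parental (SD, n = 2 each; log2 fold change -1.10 ± 0.21, edgeR adjusted p = 0.0727). HERC5 had 2.25 ± 0.0848 CPM in C4K13A and 7.65 ± 2.82 CPM in parental (-1.75 ± 0.34, edgeR adjusted p = 0.0727). DESeq2 called both (adjusted p = 0.00208 for IRF7 and 6.06e-04 for HERC5), and so did the fit without a filter on low counts (1.24e-04 and 6.75e-05). Over all genes DESeq2 called 722 and the fit without a filter 1346 in this comparison, against 159 in the main test. Without parental library 2 both were called (0.0263 and 0.00650), without parental library 1 IRF7 was (0.0380) and HERC5 was not (0.0944, at -1.32), and without C4K13A library 1 IRF7 had -0.89 and an adjusted p of 0.331. With 1 library left in a group, its spread is assumed to equal that of the others, so these p-values are weak evidence. PARP14 was at -1.17 ± 0.35 (adjusted p = 0.232).

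In C5K13A against parental 2 of the 34 tested genes had an unadjusted p under 0.05, against 1468 of all 22743 genes tested. After adjustment edgeR called 0 of the 34, against 0.0484% of all genes. DESeq2 and limma-voom also called 0. The smallest p belonged to IFI27, IFIT1 and DDX58. IFI27, a mitochondrial and nuclear envelope protein gene, had 0 counts in C5K13A, 16 and 3 counts in C4K13A and 19 and 12 counts in parental. With a floor of 3 counts in C5K13A it was at least 3.96-fold lower than in parental (adjusted p = 0.707), where the bound covers counting error only. IFIT1 was at 1.51 ± 0.60 (adjusted p = 0.735) and DDX58 at -1.07 ± 0.47 (adjusted p = 0.772), and without parental library 1 DDX58 had -0.66. The median was 0.07 over the 34 genes and -0.03 over all genes.

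**Figure D5:**
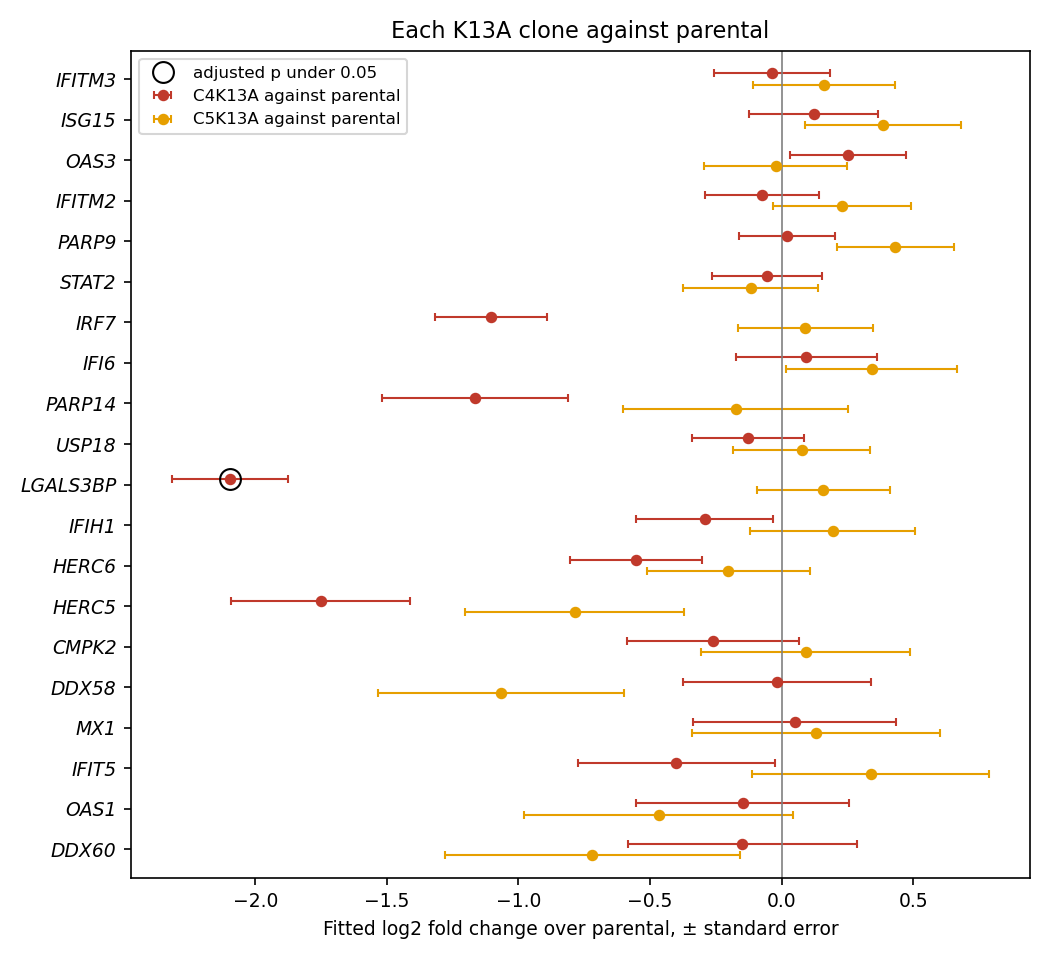
Fitted log2 fold change over parental (horizontal axis) with its standard error for the 20 genes with a mean of at least 1 CPM, in C4K13A (red) and C5K13A (orange); both share the parental libraries. The single circled point, LGALS3BP in C4K13A at -2.10, is past an adjusted p of 0.05.

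Between the clones, LGALS3BP was the 1 gene called among the 34 tested, higher in C5K13A, against 0.066% of all genes called, 0.0396% higher and 0.0264% lower in C5K13A. IRF7 had 32.4 CPM in C5K13A against 11.9 and 16.1 CPM in C4K13A (1.20 ± 0.25, adjusted p = 0.268). IFIT2 had 31 counts in C5K13A against 8 and 6 counts in C4K13A (2.27 ± 0.79, adjusted p = 0.695). The median was 0.23 over the 34 genes and -0.03 over all genes, and 21 of the 34 were positive. Over all genes tested 10716 of 22743 were positive.

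With both clones set against parental, HERC5 alone of 33 tested genes had an unadjusted p under 0.05, against 2266 of all 20649 genes tested. After adjustment edgeR called 0 of the 33, against 0.203% of all genes. DESeq2 called 1, HERC5 (-1.35, adjusted p = 0.0318), and limma-voom 0. Over all genes DESeq2 called 525 and limma-voom 11. HERC5 had 2.98 ± 1.26 CPM in the K13A libraries (SD, n = 3) and 7.65 ± 2.82 CPM in parental (SD, n = 2). Its log2 fold change was -1.36 ± 0.38 (edgeR adjusted p = 0.265), and -0.92 without parental library 1. The 3 K13A libraries are 2 of C4K13A and 1 of C5K13A, so they are not 3 independent clones. With the C4K13A libraries summed into 1, HERC5 had -1.21 (edgeR adjusted p = 0.576). PARP14 was at -0.76 ± 0.41 (adjusted p = 0.532) and HERC6 at -0.43 ± 0.23 (adjusted p = 0.540). Without C4K13A library 1 PARP14 had -0.42, and HERC6 had -0.28 without parental library 2. By residual ribosomal RNA the libraries form a low set (C4K13A 1 against parental 1) and a second set (C4K13A 2 and C5K13A against parental 2). The log2 differences in the low and second set were -2.04 and -0.85 for HERC5 and -1.98 and -0.30 for PARP14. They were -0.29 and -0.58 for HERC6 and -2.09 and -0.995 for LGALS3BP. Each set has 1 or 2 libraries a side and no test. Only the second set holds C5K13A, so clone and residual ribosomal RNA cannot be told apart in these differences. For LGALS3BP the second set joins 3.88 CPM in C4K13A 2 with 18.2 CPM in C5K13A, against 16.8 CPM in parental 2. The K13A libraries did not overlap parental for HERC5, HERC6, PARP14 and OAS1, which were lower, and for IFIT1 and TRIM22, which were higher; 28.5% of all genes tested showed such separation, 15% lower and 13.5% higher.

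The 6 genes of highest level by CPM had fold changes from -0.08 to 0.21 in that comparison. ISG15 had a log2 fold change of 0.21 ± 0.22, OAS3 0.17 ± 0.20, IFITM2 0.03 ± 0.20, IFITM3 0.03 ± 0.20, PARP9 0.17 ± 0.19 and STAT2 -0.08 ± 0.18. Their adjusted p ran from 0.765 to 0.972. In 5 of these 6 parental library 1 was the lowest library, and in STAT2 it was the highest. Of the 20 genes with at least 1 CPM, parental library 1 was lowest for 6 and highest for 6, against 33.4% and 28.3% of 14769 genes at that level. Parental library 1 also had the least residual ribosomal RNA, and the part of that in these values was not tested.

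Most ligand genes of the pathway were at or near 0, with IFNL3 (143 counts in all) and IFNL4 (50 counts in all) as exceptions. Of 22 interferon genes, 14 had 0 counts in all 5 libraries, among them IFNG, and IFNB1 had 2 counts, both in parental library 2. A count of 0 allows up to 3 counts, or 0.0507 to 0.0712 CPM depending on the library. IFNL3, a type III interferon, had 30 and 10 counts in C4K13A, 23 in C5K13A and 44 and 36 in parental (-0.66 ± 0.53, edgeR adjusted p = 0.688), and its value was -0.34 without C4K13A library 2. IFNL4 had 22 and 6 counts in C4K13A, 4 in C5K13A and 6 and 12 in parental (0.44 ± 0.89, adjusted p = 0.892). IFNL3 has a near-identical copy in IFNL2, so its counts are uncertain. IFNLR1, the specific receptor chain of these ligands, had 1 count in C5K13A and 1 in parental library 2.

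Receptors and kinases of the type I pathway were transcribed, with JAK1 the lowest kinase. IFNAR1 had 47.6 and 44.2 CPM in C4K13A, 46.8 CPM in C5K13A and 55.2 and 49.8 CPM in parental (-0.18 ± 0.14, edgeR adjusted p = 0.682), and -0.10 without parental library 1. IFNAR2 had 7.35 and 8.05 CPM in C4K13A, 7.05 CPM in C5K13A and 6.26 and 6.37 CPM in parental (0.25 ± 0.21, adjusted p = 0.706). TYK2 had 71.1 and 65.8 CPM in C4K13A, 63.6 CPM in C5K13A and 57.8 and 63.5 CPM in parental. JAK1 had 3.65 and 1.55 CPM in C4K13A, 1.61 CPM in C5K13A and 4.81 and 2.05 CPM in parental. Per kilobase of exon JAK1 averaged 0.433 CPM, against 1.87 for JAK2 and 9.50 for TYK2. JAK1 was highest in the first library of C4K13A and of parental, which are the 2 with the least residual ribosomal RNA; the part of that was not tested. Of the 11 genes of this list 10 were tested, and edgeR, DESeq2 and limma-voom called 0 in each comparison, with 0 at an unadjusted p under 0.05 over both clones in edgeR.

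Of 14 tested sensing and adaptor genes edgeR, DESeq2 and limma-voom called 0 in each comparison. Over both clones 2 had an unadjusted p under 0.05 in edgeR, against 2266 of all 20649 genes tested. MAVS, the adaptor of RIG-I and MDA5, had 186 to 235 CPM over the 5 libraries. CGAS had 3 counts in all 5 libraries, and STING1, the adaptor that acts after it, had 0.259 and 0.0923 CPM in C4K13A, 0.546 CPM in C5K13A and 0.743 and 0.788 CPM in parental. IRF3, the factor that starts interferon beta transcription, had 47.8 and 38.7 CPM in C4K13A, 38.9 CPM in C5K13A and 33.5 and 38.8 CPM in parental. DHX58, or LGP2, had -0.83 ± 0.27 over both clones (adjusted p = 0.318) and the ubiquitin ligase TRIM25 had -0.48 ± 0.19 (adjusted p = 0.418).

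Of the negative regulators, 9 of 10 were tested over both clones; edgeR, DESeq2 and limma-voom each called 0, with 1 at an unadjusted p under 0.05 in edgeR. SOCS1, which blocks JAK kinases, had 24 and 22 counts in C4K13A, 44 in C5K13A and 72 and 56 in parental. PIAS1, a SUMO ligase, was at 0.42 ± 0.16 (edgeR adjusted p = 0.406) and TRIM24 at 0.35 ± 0.15 (adjusted p = 0.466). Of 14 targets of interferon gamma 7 were tested over both clones. Both edgeR and limma-voom called 0, with 1 at an unadjusted p under 0.05 in edgeR. DESeq2 called 1, NLRC5, against 525 of all genes. NLRC5, the activator of MHC class I genes, had 3.57 and 1.82 CPM in C4K13A, 1.4 CPM in C5K13A and 16.7 and 4.26 CPM in parental (-2.20 ± 0.58, edgeR adjusted p = 0.239). NLRC5 was called by DESeq2 (adjusted p = 0.00379) and by edgeR without a filter (5.08e-10), and was at -0.90 without parental library 1. GBP2, a guanylate-binding protein gene, was at 0.75 ± 0.40 (adjusted p = 0.529), and at 0.48 without parental library 1.

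A further list of 27 interferon-stimulated genes had 24 tested members, of which edgeR called 1 in C4K13A against parental and 0 in the other comparisons. Of all genes tested 0.699% were called in C4K13A. Over both clones 9 of the 24 had an unadjusted p under 0.05, against 2266 of 20649 genes. There DESeq2 called 3 (TNFSF10, UBA7 and ZC3HAV1), limma-voom 0 and edgeR without a filter 6. Over all genes these settings called 525, 11 and 1167. LAMP3, a lysosomal membrane protein gene, was the gene that edgeR called in C4K13A. It had 0.239 and 0.531 CPM in C4K13A, 4.13 CPM in C5K13A and 23.7 and 5.05 CPM in parental. Its log2 fold change in C4K13A was -5.22 ± 0.78 (edgeR adjusted p = 0.0318). The call ended with a filter of 5 CPM (adjusted p = 0.0928) and with limma-voom (0.201), and without parental library 1 the fold change was -3.71. TNFSF10, or TRAIL, a death ligand, had 2.95 and 11.7 CPM in C4K13A, 6.69 CPM in C5K13A and 0.608 and 1.56 CPM in parental (2.73 ± 0.65 over both clones, edgeR adjusted p = 0.210). DESeq2 called it (adjusted p = 9.14e-05), as did edgeR without a filter (1.21e-10). IFI16, a DNA sensor, had 2 and 0 counts in C4K13A, 4 in C5K13A and 36 and 28 in parental (-3.63 ± 0.91, edgeR adjusted p = 0.224); it was called without a filter (0.00227) and missed the threshold with DESeq2 (0.0509). For TNFSF10 and IFI16 every clone library lay on one side of both parental libraries, as it did for 28.5% of all genes tested. These genes were named for their small p in the same libraries, so the separation adds no support. Other genes of the list, among them LAMP3 and UBA7, separated too. The list's median over both clones was -0.02, against -0.0047 over all genes.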

How the data were processed

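RNA of 5 libraries was analysed; groups and replicate numbers come from the sample titles. The deposited values are whole-number read counts per Ensembl gene ID. The tools named in the submitters' processing notes are bcl2fastq, STAR (2.5), Subread and featureCounts (1.4.6-p5). Not given in the sources used here are how multi-mapping reads and strand were handled, and which genome build and annotation release were used. Per the labels' protocols, RNA was treated with DNase I and depleted of ribosomal RNA. Symbols, positions and exon lengths were taken by ID from GENCODE v29 (55297 of 58812 IDs), and promoters from RefSeq. Another annotated gene overlaps 19 of the 38 genes, 16 of them on the opposite strand.

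CPM are counts scaled with TMM factors; levels between genes are compared per kilobase of exon. Tests used edgeR 4.0.16 (filterByExpr, TMM, glmQLFit, glmQLFTest) in R 4.3.3 over all genes, with p-values adjusted by Benjamini-Hochberg and a threshold of 0.05. Both clones against parental came from a 2-group fit (3 residual degrees of freedom), the other comparisons from 1 fit of 3 groups (2 residual degrees of freedom). The standard error is the size of the fold change over the root of F. Alternatives were RLE factors, no filter, a filter of 5 CPM, DESeq2 1.42.0, limma-voom (limma 3.58.1), genes of mitochondrial, ribosomal and small RNA left out, a 3-group fit, summed C4K13A libraries, a covariate for residual ribosomal RNA, a replicate block and each library left out. The fits were also run on simulated counts with planted changes. Those counts held no differences in residual ribosomal RNA, and no result here rests on that run. No 2 libraries were near-duplicates (chi-square per gene of 45.1 or more in each pair). The largest value, 144.5, was between the 2 parental libraries. C5K13A had 142.5 against parental library 1 and 47 against parental library 2.

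Genes were named by rule. Each of the 38 with a mean of at least 1 CPM, or called, is given in every library, and fold changes are given for called genes and for up to 3 with the smallest adjusted p per comparison. From the other lists IFNAR1, IFNAR2, JAK1, TYK2, IRF3 and SOCS1, called genes and up to 2 with the smallest adjusted p over both clones are named; 1 gene under this rule is not reported here. Other fold changes and the values of low genes, and DTX3L, JAK2, MAVS, CGAS, STING1, IFNB1, IFNG, IFNLR1, UBA7 and ZC3HAV1, were added after their values were seen. The genes and lists were chosen with earlier results of these data known. Floors of 3 counts cover counting error only, and no molecular identifiers are named in the labels, so reads are not independent.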

Additional observations from a re-analysis of the deposited data

Results flagged for a closer look

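LGALS3BP differed between the 2 clones, each set against the same parental libraries: its log2 fold change of C5K13A over C4K13A was 2.26 ± 0.25 (edgeR's quasi-likelihood test, adjusted p = 0.0430), with 18.2 CPM in C5K13A against 3.67 and 3.88 CPM in C4K13A. The call was lost with limma-voom (adjusted p = 0.161) and with a filter of 5 CPM (0.177). C5K13A is 1 library whose spread is assumed to equal that of the others, and the cause of the difference was not tested.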

How the results depend on the processing

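Counts of the 38 genes called depended on the test. For both clones against parental, 0 in the main test became 3 without a filter (HERC5, LGALS3BP and PARP14), 1 with DESeq2, and 0 to 1 with 1 library left out, the 1 being LGALS3BP without C5K13A. For C4K13A against parental, 1 became 4 without a filter and 4 with DESeq2 (HERC5, IRF7, LGALS3BP and PARP14 in both), and 1 to 3 with 1 library left out. For C5K13A against C4K13A, 1 became 2 without a filter and 2 with DESeq2 (IRF7 and LGALS3BP), 0 with a filter of 5 CPM and 0 with limma-voom, where 0 of all genes were called. For C5K13A against parental the count was 0 in each alternative run. Libraries that share a replicate number are not said to share a batch, and the deviations of the 2 numbered pairs correlated with r = 0.196 across genes. With the replicate number as a block, in 4 libraries without C5K13A, 4 of the 38 were called (HERC5, IRF7, LGALS3BP and PARP14) and 885 of all genes. Over all genes, calls between both clones and parental numbered 42 in the main test, 1167 without a filter, 525 with DESeq2, 11 with limma-voom, 2 with a filter of 5 CPM and 0 without parental library 1; those between C4K13A and parental numbered 159, from 32 with the filter of 5 CPM to 1667 without parental library 2. Between C4K13A and parental, calls over all genes rose from 159 to 1346 without a filter and to 722 with DESeq2. Between the clones they rose from 15 to 423 without a filter and to 173 with DESeq2. The added calls among the 38 thus came with many more calls over all genes. Among the other lists, calls by edgeR without a filter and by DESeq2 beyond those of the main test fell in the interferon gamma targets and the further interferon-stimulated genes. There, over both clones, 0 became 1 and 1, and 0 became 6 and 3. IFNL4 alone changed sign among the named fold changes, to -0.0073 in the 3-group fit and -0.055 without parental library 1; with 1 library left out it ran from -0.055 to 1.15. Where not stated, the cause of a change was not tested. Genes under 1 CPM rest on few counts, and differences there were not detectable at this depth unless large.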

Other observations

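SHFL, an inhibitor of viral translation from the further list of interferon-stimulated genes, was picked after its values were seen: it had 4.07 and 2.84 CPM in C4K13A, 1.16 CPM in C5K13A and 11.0 and 3.15 CPM in parental. Its log2 fold change over both clones was -1.39 ± 0.60 (edgeR's quasi-likelihood test, adjusted p = 0.455). DESeq2 called it in C5K13A against parental, where it called 217 of all genes, and not over both clones. Like NLRC5 and LAMP3, it was highest in parental library 1. UBA7, the enzyme that activates ISG15, was also picked after its values were seen. It had 2.47 and 2.58 CPM in C4K13A, 2.21 CPM in C5K13A and 1.18 and 0.631 CPM in parental. Its log2 fold change over both clones was 1.42 ± 0.38 (edgeR adjusted p = 0.249), and DESeq2 called it. UBA7 was higher in each clone library than in either parental one, as were 13.5% of all genes tested. The ISG15 ligase HERC5 was lower in the same libraries, as were 15% of all genes tested. HERC6 was lower too, while the groups overlapped for ISG15 and USP18.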
